A study of Mus musculus with 8 samples.

Results

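The 8 genes described here encode the RNA-binding proteins that destroy cytokine and activation mRNAs in lymphocytes: the Regnases Zc3h12a, Zc3h12c and Zc3h12d, the Roquins Rc3h1 and Rc3h2, and the ZFP36 family members Zfp36, Zfp36l1 and Zfp36l2. They were taken by name from the 24976 gene symbols of 1 table of read counts, and all 8 passed the filter on low counts that left 12742 genes for testing. The table holds 8 bulk RNA-seq libraries, 2 in each of 4 groups. Mouse CD8+ T cells, isolated naive, were cultured with anti-CD3, anti-CD28 and IL2 and harvested at 24 or 48 h. One genotype was Cd8Cre with floxed alleles of both Nr4a1 and Nr4a2 (Nr4a1 flox/flox, Nr4a2 flox/flox; labelled dKO), in which the Cre is driven by a Cd8 gene promoter, and the other was their wild-type littermates (WT). NR4A1 and NR4A2 are nuclear receptors induced by the T cell receptor. The labels do not say whether the 2 replicates of a group came from separate mice, so a p-value here reflects only how far these libraries spread, which may be technical variation.

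Regnase-1 (Zc3h12a) is an endonuclease that cuts stem-loops in the 3′UTR of translated mRNAs, and in T cells the protein is cleaved after antigen receptor signalling. Roquin-1 and Roquin-2 (Rc3h1, Rc3h2) bind constitutive decay elements, short stem-loops with a 3-base loop, and recruit the CCR4-NOT deadenylase. ZFP36 (tristetraprolin) and its relatives ZFP36L1 and ZFP36L2 bind AU-rich elements through paired zinc fingers and also recruit CCR4-NOT, and the p38 to MK2 kinase pathway holds ZFP36 inactive by phosphorylation. Loss of these proteins in T cells is known to raise cytokine output, and the transcripts of the family are themselves short-lived and carry AU-rich elements.

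The elements that these proteins read were looked up in the genes' own 3′UTRs, 1 coding transcript per gene, in GENCODE M21 on GRCm38. The AU-rich nonamer UUAUUUAUU, the preferred site of the ZFP36 family, was present once each in 5 of 8 members, all 3 ZFP36 genes and both Roquins, and in 0 of the 3 Regnases. Among 10824 tested genes with an annotated 3′UTR, 7.47% held it. The windows below show the nonamer in capitals (as DNA) with 10 bases on each side, in the orientation of the mRNA, and the Il2 window is given as a described target of the same family.
Zfp36, chr7:28376951-28376979, minus strand: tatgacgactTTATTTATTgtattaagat
Zfp36l1, chr12:80108167-80108195, minus strand: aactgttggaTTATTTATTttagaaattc
Zfp36l2, chr17:84184914-84184942, minus strand: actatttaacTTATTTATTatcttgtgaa
Rc3h1, chr1:160970043-160970071, plus strand: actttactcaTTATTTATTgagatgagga
Rc3h2, chr2:37373287-37373315, minus strand: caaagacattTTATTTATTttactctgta
Il2, chr3:37120898-37120926, minus strand: ttatctgaaaTTATTTATTatattgaatt
The 3′UTRs of the 5 members differed in length, with 774 bases in Zfp36, 1835 in Zfp36l1, 1822 in Zfp36l2, 7181 in Rc3h1 and 5160 in Rc3h2, against a median of 960 in the tested genes, and a longer sequence has more room for a match. A match is a description of these letters and not a measured binding site.

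The second element, the constitutive decay element read by Roquin, was searched on the sense strand as TTCNNNGAA, the NNN being a pyrimidine, a purine and a pyrimidine. It was found in both Roquin transcripts and in no other member, at 2 places in Rc3h1 and at 1 in Rc3h2, and in 5.42% of the tested 3′UTRs. The best described such element lies in Tnf, and it is set beside the Roquin sites here with the 9 letters in capitals.
Tnf, chr17:35199578-35199606, minus strand: cagacatgttTTCTGTGAAaacggagctg
Rc3h1 site 1, chr1:160968032-160968060, plus strand: tttgtttttgTTCTGTGAAtgaactttat
Rc3h1 site 2, chr1:160971653-160971681, plus strand: agccaataacTTCTGTGAAgttgcctttt
Rc3h2, chr2:37373802-37373830, minus strand: tttaattaacTTCTGTGAAgttgtttact
All 4 windows hold the same 9 letters. Outside them, 3 further bases on each side could pair as Watson-Crick partners in Tnf, in Rc3h1 site 2 and in Rc3h2, and 0 in Rc3h1 site 1.

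Library depth ran from 5000952 to 21686236 counts, and the second WT library at 48 h was the deepest. That library stood apart from the rest: ribosomal protein genes took 6.36% of its counts, against 10.0% in the other WT library at 48 h and 10.6 to 12.1% in the other 6. Replicates correlated at 0.965 for the 48 h WT pair, and at 0.985 to 0.989 elsewhere. Cd8a, Cd8b1, Cd3e and Cd3g together held 993 to 1651 CPM (counts scaled to a common library total). The summed markers of CD4 or regulatory T cells held 1.34 to 3.51 CPM, those of B cells 3.16 to 6.46, those of myeloid cells 1.26 to 3.39 with Lyz2, S100a8 and S100a9 at 0, and those of NK or gamma delta T cells 0.109 to 1.71 with Ncr1 at 0. Col1a1, Epcam, Hbb-bs and Pf4, read for stromal, red or platelet cells, together held 9.08 to 16.7 CPM, with Hbb-bs at 0. The targeted genes do not check the labels, because counts per gene symbol can include exons outside a floxed segment, which was not tested. Nr4a2 was higher in the libraries labelled dKO (log2 difference 1.35 at 24 h and 1.38 at 48 h), and Nr4a1 was not called at either time. Scaled by library total alone, without TMM, Xist held 323 to 805 CPM in every WT library and 0.719 to 1.80 in every dKO library, and Y-linked genes the reverse. Genotype and sex therefore cannot be told apart in any comparison of dKO with WT below, or in the interaction of genotype with time.

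**Figure D1:**
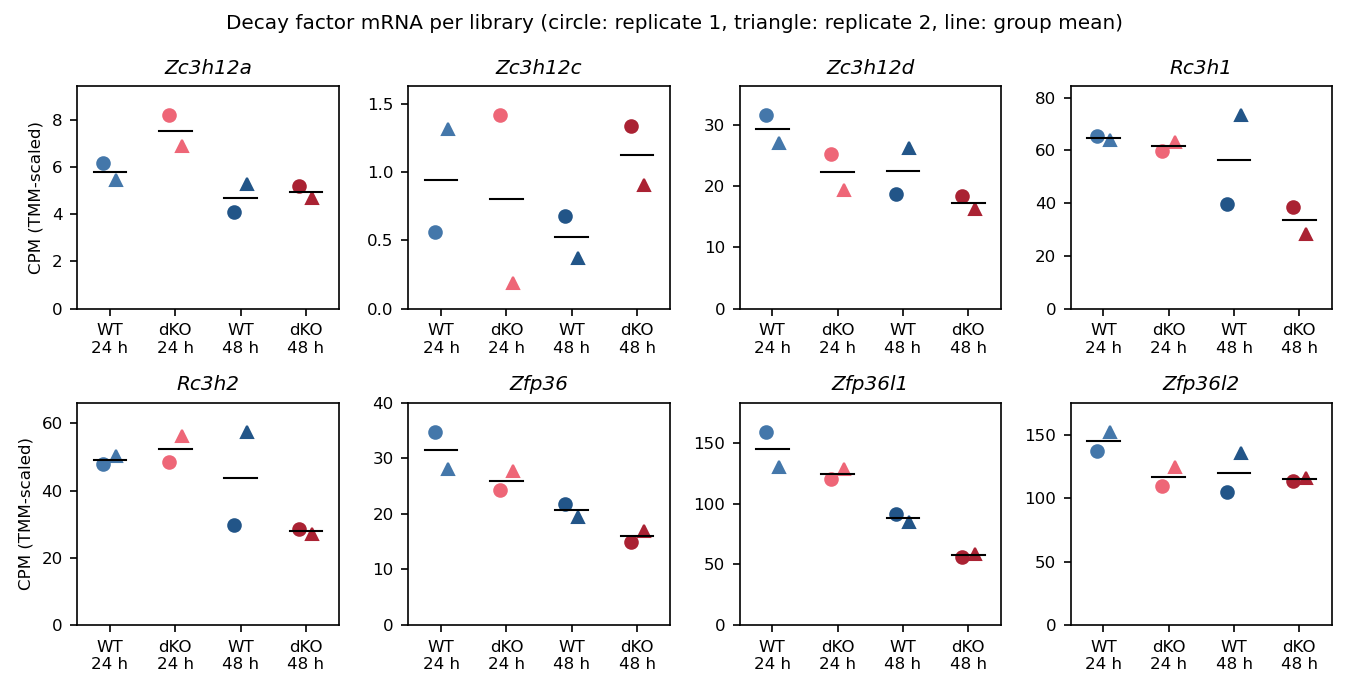
CPM (y axis, TMM-scaled, from 0, a different range in each panel) of the 8 decay factor genes in the 4 groups; circles are replicate 1, triangles replicate 2, and the line is the group mean. Zfp36l1 lies at 131 to 159.8 CPM in the 24 h WT libraries and at 56.4 to 58.7 in the 48 h dKO libraries, and the second WT library at 48 h is the highest of its time for both Roquins.

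Zfp36l1 was the member that differed between the groups. Its mRNA fell from 24 to 48 h in both genotypes and was lower in dKO than in WT at 48 h. At 24 h the WT libraries held 159.8 and 131 CPM and the dKO libraries 120.2 and 129. At 48 h the WT libraries held 91.9 and 85.1 CPM, and the dKO libraries 56.4 and 58.7. The groups followed in that order with no overlap, although the first pair lay close together, and 379 to 1615 counts stood behind each value. Among all tested genes, 20.6% were lower in dKO without overlap at 24 h and 28.6% at 48 h. At 48 h the dKO level was 0.652 times the WT level (log2 difference −0.62, SE 0.152, 95% interval −0.96 to −0.28, edgeR adjusted p = 0.0317 over 12742 genes). At 24 h the log2 difference was −0.22 (95% interval −0.55 to 0.11, edgeR adjusted p = 0.88). The difference between these 2 genotype differences was not called (log2 −0.40, SE 0.213, edgeR adjusted p = 0.451), so the genotype effect is not shown to differ between the times. In these bulk samples, fewer cells that express a gene and less of its RNA per cell cannot be told apart.

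Over both times together Zfp36l1 was lower in dKO by 0.42 on the log2 scale (SE 0.107, edgeR adjusted p = 0.042). Its decline with time came to −0.72 in WT (SE 0.150, edgeR adjusted p = 0.0129) and to −1.11 in dKO (SE 0.153, edgeR adjusted p = 0.00523), to 0.609 and 0.462 times the level at 24 h. The genotype call at the later time disappeared when any single dKO library was removed, with scaling by library size alone and in a fit of the 48 h libraries alone, and its adjusted p by edgeR or DESeq2 ran from 0.00384 to 0.213 over 15 alternatives, with a log2 difference of −0.67 to −0.44. The call over both times held in 7 of 14 alternatives, with an adjusted p of 0.00272 to 0.222 and a log2 difference of −0.49 to −0.33. It was lost without any single dKO library, without the first WT library at 24 h, with library size alone and with the replicate number as a block. The decline in WT was lost without the first WT library at 24 h (edgeR adjusted p = 0.0994), and the decline in dKO was lost without any 1 dKO library, with adjusted p up to 0.127.

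Zfp36, the founding member of the family, held fewer counts, and its values ran the same way. At 24 h it stood at 34.8 and 28.1 CPM in WT against 24.3 and 27.7 in dKO. By 48 h the values were 21.9 and 19.5 in WT against 15.0 and 16.9 in dKO. Neither pair of genotype groups overlapped, the first by a narrow margin. Of all tested genes, 20.6% were lower in dKO without overlap at 24 h and 28.6% at 48 h. No comparison of Zfp36 passed the threshold. The log2 difference of 48 h from 24 h was −0.61 in WT (SE 0.175, edgeR adjusted p = 0.0513) and −0.70 in dKO (SE 0.182, edgeR adjusted p = 0.0711). That of dKO from WT was −0.28 at 24 h (95% interval −0.67 to 0.11) and −0.36 at 48 h (95% interval −0.77 to 0.04), with an adjusted p of 0.191 by edgeR at 48 h.

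Zfp36l2, which is known to act with ZFP36L1 in lymphocyte quiescence, had no called difference. At 24 h WT held 138 and 153 CPM and dKO 109 and 125. At 48 h WT held 105 and 136 CPM and dKO 114 and 117. The 2 dKO libraries at 48 h lay inside the range of the WT libraries of that time. The log2 difference of dKO from WT was −0.31 at 24 h (95% interval −0.68 to 0.06) and −0.07 at 48 h (95% interval −0.44 to 0.30). With time it was −0.27 in WT (95% interval −0.64 to 0.10) and −0.02 in dKO (95% interval −0.39 to 0.35), and none of these was called.

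The make-up of the family moved with these values, and this measure does not depend on the scaling between libraries. At 24 h Zfp36l1 gave 41.9 and 48.1% of the counts of the 3 ZFP36 genes in the WT libraries, and 45.9 and 47.3% in the dKO libraries. At 48 h it gave 35.4 and 42.1% in WT, and in dKO 30.5% (Wilson 95% interval 28.0 to 33.1%) and 30.6% (28.3 to 33.0%). The intervals of both dKO libraries lay below those of both WT libraries at 48 h, and such intervals cover counting error only. Zfp36l2 made up the balance, with 41.4 to 49.1% (WT) and 43.1 to 44.3% (dKO) at the earlier time, then 47.9 to 56.5% (WT) and 60.6 to 61.4% (dKO). Zfp36 stayed at 8.10 to 10.5% throughout.

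**Figure D2:**
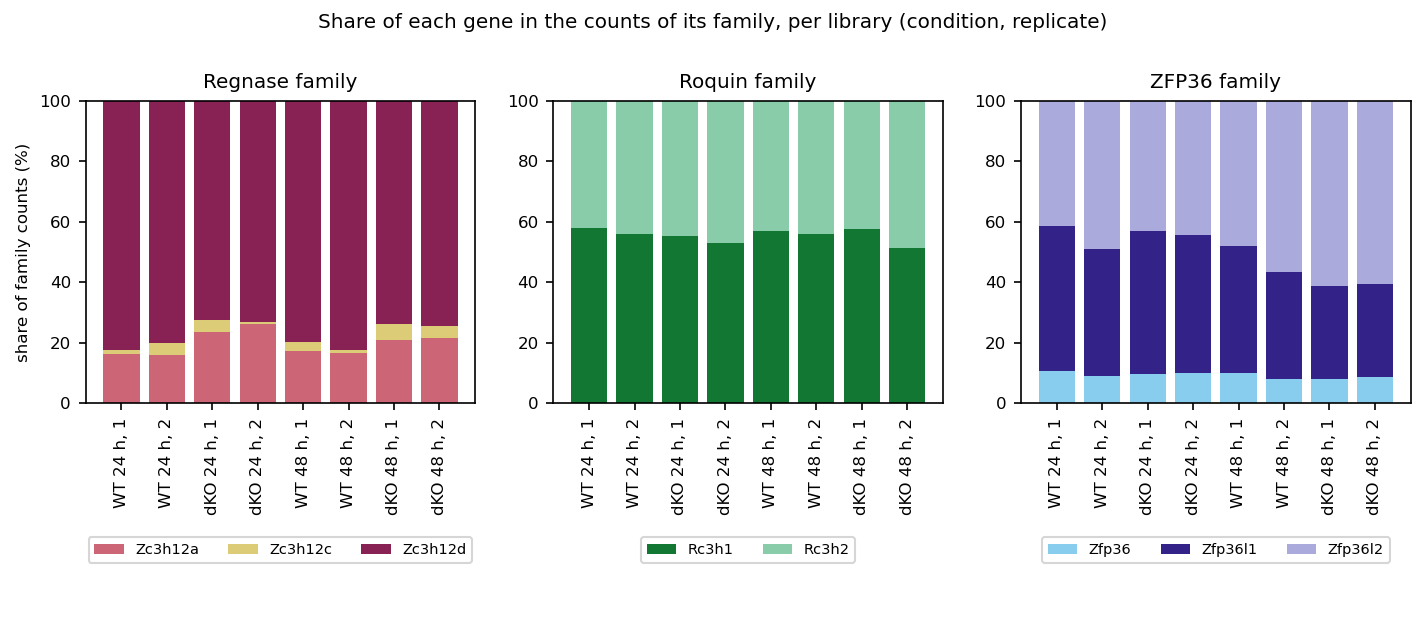
Stacked bars give the share of each gene (y axis, percent, from 0) in the summed counts of its family for each of the 8 libraries (x axis: condition, replicate). Zfp36l1 takes 30.5 and 30.6% of the ZFP36 counts in dKO at 48 h and 35.4 to 48.1% in the other libraries, and Zc3h12a takes more of the Regnase counts in the 4 dKO libraries than in the 4 WT libraries.

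A 250-base stretch before the RefSeq start site of Zfp36l1 is shown because this gene carried the called differences. It lies at chr12:80113014-80113263 on the minus strand of GRCm38.p6, and runs 5′ to 3′ toward the start site.
Zfp36l1 promoter: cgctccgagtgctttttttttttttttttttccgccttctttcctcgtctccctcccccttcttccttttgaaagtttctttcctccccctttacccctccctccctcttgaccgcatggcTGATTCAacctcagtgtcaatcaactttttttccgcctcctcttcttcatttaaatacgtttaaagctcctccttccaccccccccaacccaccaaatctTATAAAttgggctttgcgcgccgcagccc
The capitals mark a match to the AP-1 motif TGANTCA, beginning 129 bases before the start site, and a TATAAA match beginning 29 bases before it. Both strands were searched in 250 bases before each start site, and 6.75% of 32851 promoters held the AP-1 letters and 12.4% the TATAAA letters. RefSeq promoters were found for 7 of the 8 members. Rc3h1 also held 1 AP-1 match, 133 bases before its start, and Zfp36 held an EGR motif (GCGGGGGCG, in 2.57% of promoters) at 105 and a CArG box, the serum response element core, at 58 (in 1.47%). The letters AAAGGTCA, to which NR4A monomers bind, were in the window of 0 of these 7 genes and in 1.34% of all promoters, which says only that they do not occur in these windows.

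The Roquin genes Rc3h1 and Rc3h2 encode RING and ROQ domain proteins that act redundantly in T cells. At 24 h Rc3h1 held 65.6 and 64.0 CPM in WT against 59.8 and 63.4 in dKO, and at 48 h 39.6 and 73.5 in WT against 38.7 and 28.5 in dKO. Rc3h2 held 47.8 and 50.4 CPM (WT) against 48.6 and 56.3 (dKO) at the earlier time, and 29.9 and 57.6 (WT) against 28.6 and 27.2 (dKO) at the later one. The 2 WT libraries at 48 h disagreed for both genes: the second sat near the 24 h values and the first beside the dKO libraries.

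The log2 difference of dKO from WT at 48 h was −0.77 for Rc3h1 (SE 0.260, edgeR adjusted p = 0.0809) and −0.68 for Rc3h2 (SE 0.258, edgeR adjusted p = 0.107), so neither was called. With time in dKO the values were −0.88 (edgeR adjusted p = 0.103) and −0.91 (edgeR adjusted p = 0.0927), and at 24 h the genotypes lay at −0.07 and 0.09. Without the first WT library at 48 h both genes were called at 48 h (log2 −1.15, edgeR adjusted p = 3.8e-05, and log2 −1.06, edgeR adjusted p = 2.7e-05). Without the second, the differences were −0.24 and −0.09 and neither was called. The course in WT turned with the same choice, from 0.20 and 0.25 without the first to −0.72 and −0.72, both called, without the second. The genotype difference of the Roquins at 48 h thus rested on which WT library was read.

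Transcript length moved with these values. The 10824 tested genes with a coding transcript were divided by its length into 4 classes of near equal size, class 1 holding the shortest. Rc3h1 (11006 bases) and Rc3h2 (8799 bases) are in class 4, as is Zc3h12c (6133 bases), while Zfp36l1, Zfp36l2 and Zc3h12d (2990, 3530 and 4092 bases) are in class 3 and Zc3h12a and Zfp36 (2755 and 2790 bases) in class 2. Between the 2 WT libraries at 48 h, the median log2 difference of the second from the first was −0.36 in class 1, −0.11 in class 2, 0.07 in class 3 and 0.38 in class 4. In the other 3 groups the same medians lay between −0.03 and 0.06. The genotype difference at 48 h had medians of 0.36, 0.13, −0.09 and −0.39 from class 1 to class 4, so the median of class 4, which begins at 4407 bases, was also below 0. In class 3, where Zfp36l1 lies at −0.62, the median was −0.09. The part of length, and of the ribosomal protein share above, in the differences of single members was not tested.

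**Figure D3:**
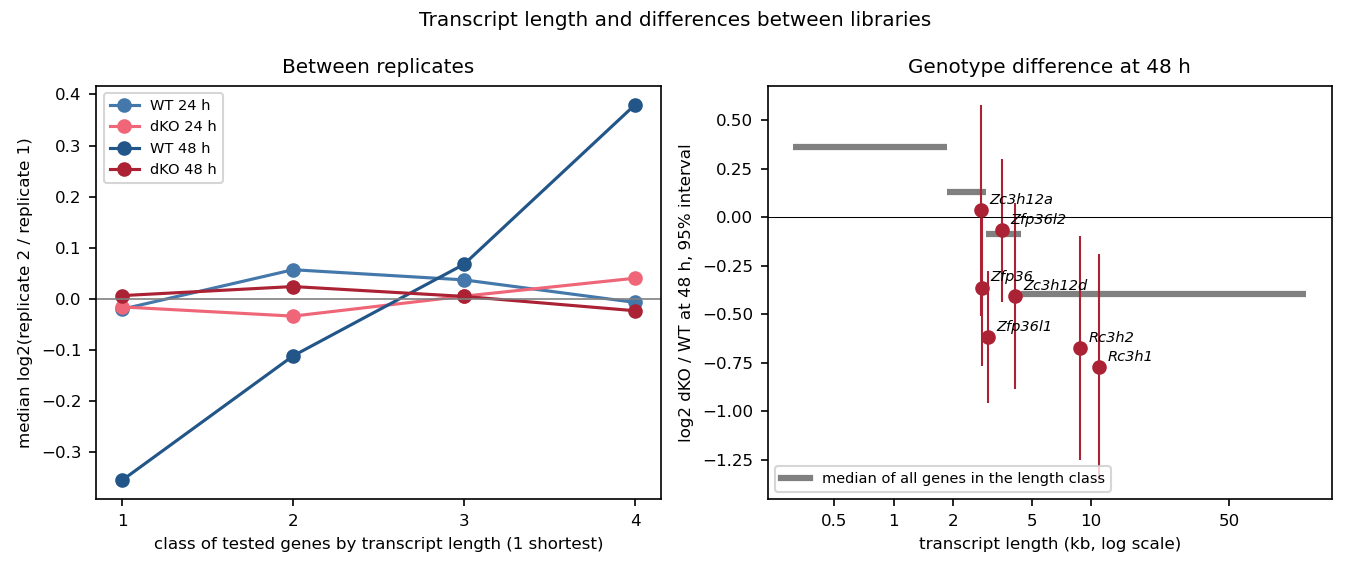
Left, the median log2 ratio of replicate 2 to replicate 1 (y axis) in the 4 length classes (x axis, 1 shortest), 1 line per group. Right, the log2 difference of dKO from WT at 48 h with its 95% interval (y axis) against transcript length (x axis, kb, log scale) for 7 members, with grey bars for the median of all genes in each class; Rc3h1 and Rc3h2 lie at −0.77 and −0.68 where the grey bar is at −0.39, and Zc3h12c, with 4 to 9 counts in these libraries, is left out.

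**Figure D4:**
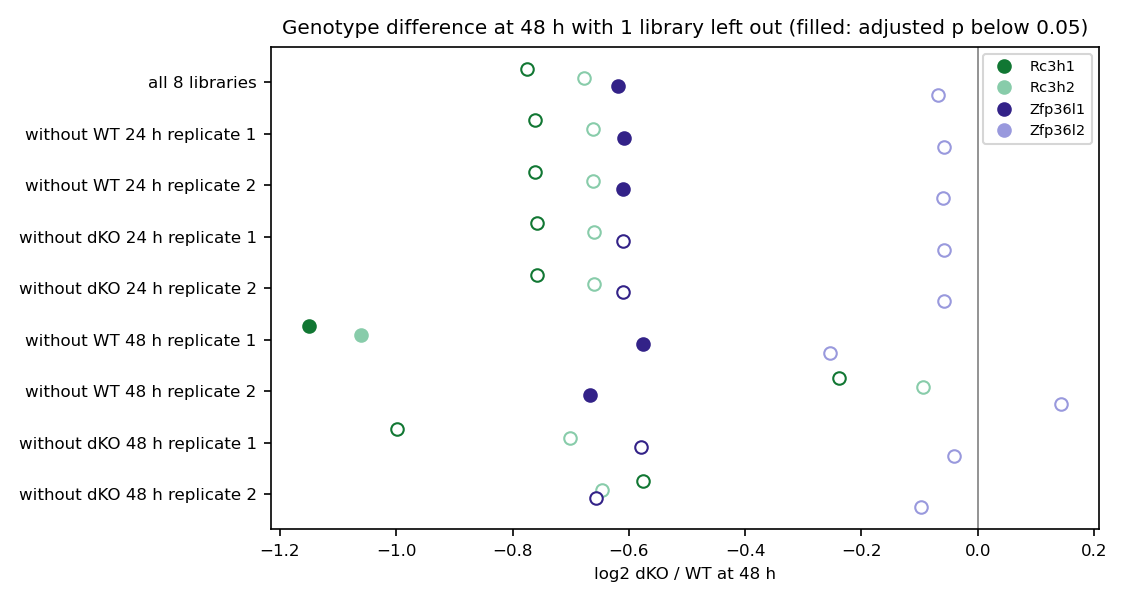
Log2 difference of dKO from WT at 48 h (x axis) for Rc3h1, Rc3h2, Zfp36l1 and Zfp36l2 with all 8 libraries and with each left out in turn (y axis); filled points have an adjusted p below 0.05. The Roquin points move from −1.15 and −1.06 without the first WT library at 48 h to −0.24 and −0.09 without the second, while Zfp36l1 stays between −0.67 and −0.58.

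The Roquins kept to a narrow range relative to each other. Rc3h1 gave 51.2 to 57.9% of their summed counts in all 8 libraries, with WT means of 56.9 ± 1.34% (SD, n = 2) at 24 h and 56.5 ± 0.660% at 48 h, and dKO means of 54.1 ± 1.59% and 54.3 ± 4.49%. Across the 8 libraries the log2 CPM of Rc3h1 and Rc3h2 had a Pearson r of 0.961, a description over libraries that share their depth and the length trend above.

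Among the Regnases, Zc3h12d carried most of the counts. It encodes a Regnase described in lymphocytes as restraining their growth and cytokine mRNAs, and at 24 h stood at 31.6 and 27.0 CPM in WT against 25.3 and 19.3 in dKO. At 48 h it stood at 18.8 and 26.3 CPM in WT against 18.3 and 16.2 in dKO. Both genotype pairs were free of overlap, the second by a narrow margin, where 20.6% (24 h) and 28.6% (48 h) of all tested genes were lower without overlap. The log2 difference of dKO from WT was −0.38 at 24 h (95% interval −0.86 to 0.09) and −0.41 at 48 h (95% interval −0.89 to 0.07), and −0.40 over both times (SE 0.151, edgeR adjusted p = 0.129). It was called at 48 h in 1 of 15 alternatives, without the first WT library at 48 h (log2 −0.62, edgeR adjusted p = 0.00819).

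Zc3h12a, the Regnase-1 gene, was scarce, with 24 to 100 counts per library. At 24 h WT held 6.18 and 5.43 CPM and dKO 8.20 and 6.88. At 48 h WT held 4.10 and 5.27 CPM and dKO 5.21 and 4.68. It was the 1 member whose dKO libraries both exceeded the WT libraries at 24 h (log2 0.39, 95% interval −0.14 to 0.92, edgeR adjusted p = 0.87), where 24.3% of all tested genes did. The genotypes overlapped at 48 h (log2 0.03). With time it lay at −0.62 in dKO (SE 0.242, edgeR adjusted p = 0.165) and −0.27 in WT, neither called.

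The make-up of the Regnase family was read in the same way. Zc3h12a gave 16.1% of the counts of the 3 genes in both WT libraries at 24 h and 16.5 and 17.4% at 48 h. In dKO it gave 23.5 and 26.1% at 24 h and 21.0 and 21.4% at 48 h. All 4 dKO libraries were above all 4 WT libraries, but the Wilson 95% interval of each dKO library overlapped that of each WT library. The first dKO library at 24 h had 19.2 to 28.5% and the first WT library of that time 12.2 to 20.9%. Overlap of 2 such intervals does not show that the shares agree. Zc3h12d took 79.7 to 82.4% in WT and 72.4 to 74.4% in dKO. Its interval in the first dKO library at 24 h was 67.3 to 77.0%. That lay below the first WT library at 24 h (77.5 to 86.5%) and the second at 48 h (79.1 to 85.2%), and all other pairs of dKO and WT libraries overlapped.

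Zc3h12c, a Regnase best known from macrophages and endothelium, was close to the limit of detection. At 24 h it had 4 and 9 counts in WT against 13 and 1 in dKO, and at 48 h 4 and 7 in WT against 9 and 7 in dKO. With so few counts, a difference between the groups was not detectable at this depth (log2 −0.01, 95% interval −1.79 to 1.77, at 24 h, and 1.26, 95% interval −0.44 to 2.96, at 48 h).

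Counted as a group, 0 of 8 members were called between the genotypes at 24 h, where 0.432% of the tested genes were (0 members had an unadjusted p under 0.05 by edgeR, where 6.98% of genes did, and DESeq2 called 0). At 48 h 1 of 8 was called, where 11.2% of the tested genes were, 8.04% lower in dKO, and over both times 1 of 8 where 7.8% were. From 24 to 48 h 1 of 8 was called in WT and 1 of 8 in dKO, where 11.4% and 3.63% of the tested genes were, 3.5% and 1.88% in the direction of the member. One called gene among 8 members is near the background share at 48 h, over both times and in WT. In the interaction of genotype with time 0 of 8 members and 0 of 12742 genes were called by edgeR. Of the latter 12.4% had an unadjusted p under 0.05, and DESeq2 called 0 members.

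The members' median log2 difference of dKO from WT was −0.15 at 24 h and −0.38 at 48 h, beside medians of 0.01 and −0.03 over all tested genes. From 24 to 48 h it was −0.31 in WT, with 8 of 8 below 0, and −0.66 in dKO, with 7 of 8 below 0, beside all-gene medians of 0.00 and −0.01. Scaling by library size alone moved the all-gene medians to 0.15 for the genotypes at 48 h, −0.36 for time in WT and −0.18 for time in dKO. At 48 h, 5 members were lower in both dKO libraries than in both WT libraries (Zc3h12d, Rc3h1, Rc3h2, Zfp36 and Zfp36l1), where 28.6% of all tested genes were, and at 24 h 5 members (Zc3h12d, Rc3h1, Zfp36, Zfp36l1 and Zfp36l2), where 20.6% were. Zc3h12a was higher in both dKO libraries at 24 h, where 24.3% were. At 48 h Zc3h12c, close to the limit of detection, held 1.34 and 0.909 CPM in dKO against 0.683 and 0.369 in WT. These values rest on 4 to 9 counts a library, and their order is not read as a difference. Over both times, with 4 libraries against 4, all 8 members overlapped, and 8.52% of tested genes did not.

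**Figure D5:**
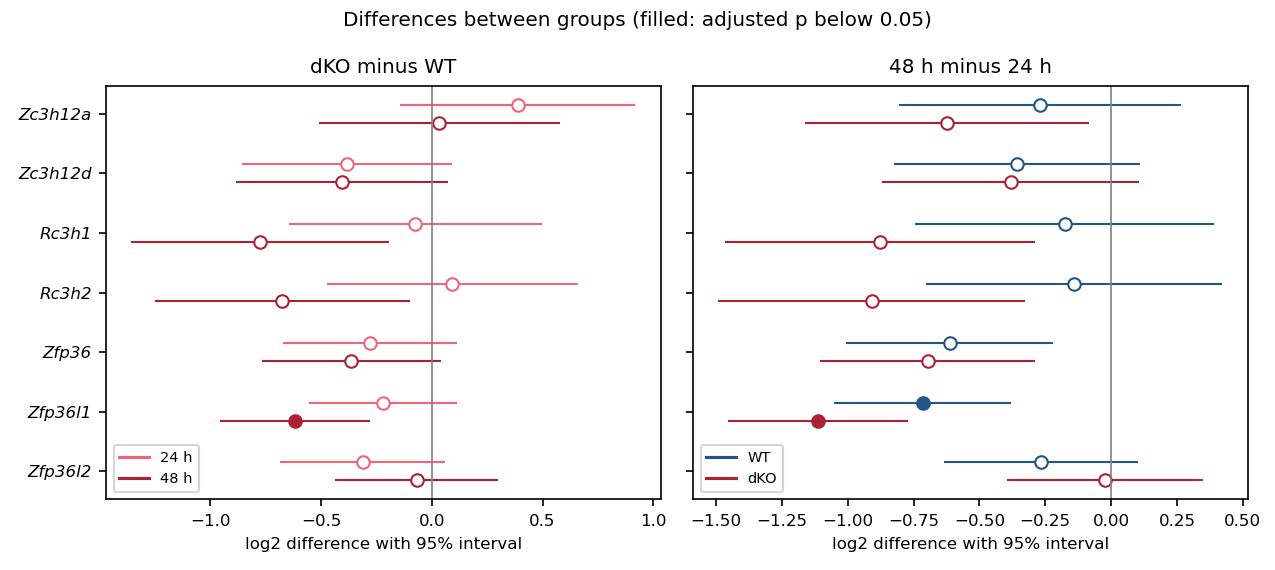
Log2 differences (x axis) with 95% intervals for 7 members (y axis), dKO minus WT on the left and 48 h minus 24 h on the right; filled points have an adjusted p below 0.05 over all tested genes. Zfp36l1 is filled at 48 h (−0.62) and in both time courses (−0.72 and −1.11); Zc3h12c is left out because its intervals span more than the plotted range.

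Levels of different genes were set side by side as CPM per kb of transcript, a scale that assumes reads spread over whole transcripts, which is not given in the sources used here. On it Zfp36l1 and Zfp36l2 led in every group. Zfp36l1 held 48.6 ± 6.91 (SD, n = 2) CPM per kb in WT at 24 h and 41.7 ± 2.12 in dKO, against 41.1 ± 3.07 and 33.1 ± 3.01 for Zfp36l2. At 48 h the order was the other way, with 29.6 ± 1.62 in WT and 19.3 ± 0.545 in dKO for Zfp36l1 and 34.1 ± 6.26 and 32.6 ± 0.592 for Zfp36l2. In WT the libraries of the 2 genes overlapped at 48 h, while in dKO at 48 h they were far apart. Zfp36 came next with 5.72 to 11.3 CPM per kb as group means. Zc3h12d (4.22 to 7.17), Rc3h1 (3.05 to 5.89) and Rc3h2 (3.17 to 5.96) changed places among the groups and were not separated beyond their spread in WT at 48 h. Zc3h12a (1.70 to 2.74) and Zc3h12c (0.0858 to 0.183) were seventh and eighth in all 4 groups.

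The genes whose log2 CPM was most like a member's over the 8 libraries were named by Pearson correlation among 10201 genes (10202 for Zc3h12c). The gene most like Zfp36 was Zfp36l1 (r = 0.981), followed by Gbp2 (0.974) and Arntl (0.971), and Zfp36l1 was nearest to Lrig1 (0.985) and Txk (0.982), with Zfp36 next. Zfp36l2 was nearest to Trim65 (0.955), Itgb2 (0.950) and Tmem63b (0.945), and had an r of 0.471 with Zfp36l1. Rc3h1 was nearest to Lclat1 (0.991), Pdpk1 (0.989) and Rif1 (0.989), and Rc3h2 to LOC105244251 (0.994), Svil (0.992) and Pank3 (0.991). Zc3h12d was nearest to Stk38 (0.961), Tnrc6c (0.948) and Rttn (0.947), and Zc3h12a to Mettl16 (0.971), Jak2 (0.963) and Cflar (0.961). Zc3h12c, with its few counts, was nearest to Ccdc84 (0.931), Srfbp1 (0.927) and Angptl4 (0.924). With 8 libraries in 4 groups such values are descriptions, and the libraries share the group and length differences given above.

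Few genes for the enzymes that the members recruit were called. For comparison, 3.19% of all tested genes were higher and 8.04% lower in dKO at 48 h, and 7.87% were higher and 3.5% lower with time in WT. Of 14 tested genes of CCR4-NOT and other deadenylases, 0 were called at 24 h and 1 at 48 h, Cnot11, a subunit of the complex, at −0.54 (SE 0.139, edgeR adjusted p = 0.0378), and it rose with time in WT (0.66). Of 5 BTG and TOB adaptors of the deadenylase, 0 were called between the genotypes, and Btg3 was lower at 48 h than at 24 h in WT (log2 −0.91). Of 15 decapping and 5′ to 3′ decay genes, Lsm1, a subunit of the decapping activator ring, was higher in dKO at 48 h (log2 0.71, SE 0.173, edgeR adjusted p = 0.0301) and over both times (0.46). The numbers of decapping and deadenylase genes called higher and lower at 48 h moved with 1 library left out. Of 14 exosome and SKI genes, which degrade from the 3′ end, 3 were higher in dKO at 48 h, Exosc5 (0.72), Exosc4 (0.66) and Exosc1 (0.68), with 0 lower and a list median of 0.39, and Exosc4 was higher over both times (0.47). With time in WT 3 of the 14 fell and 0 rose, Exosc5 (−0.86), Exosc4 (−0.56) and Exosc6 (−0.49), and in dKO 0 were called. The 3 exosome transcripts higher at 48 h are in length class 1 (1018 to 1796 bases), where the median of all genes at 48 h was 0.36, and the part of length was not tested. Leaving out 1 library gave 0 to 10 exosome and SKI genes higher and 0 to 3 lower in dKO at 48 h, and 0 to 2 higher and 0 to 6 lower with time in WT.

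Upstream kinases and other RNA-binding proteins were also read. Of 6 genes of the p38 and MK2 axis, the kinase gene Map2k3 was higher in dKO over both times (0.50, SE 0.0985, edgeR adjusted p = 0.0238) and lower at 48 h than at 24 h in both genotypes (−0.57 in WT, −0.63 in dKO). Mapkapk2, the MK2 gene, rose with time in dKO (0.85). Of all tested genes, 2.28% were higher in dKO over both times and 3.5% fell with time in WT. With time in dKO 1.88% fell and 1.76% rose. The number of p38 and MK2 genes called moved with 1 library left out. Of 7 other AU-rich element binding proteins 0 were called in any comparison in the edgeR fit described below. Over the alternatives to that fit, 0 to 4 were called lower with time in WT. Between the genotypes 0 had an unadjusted p under 0.05 by edgeR, the nearest at 48 h being Elavl1 (0.25, edgeR adjusted p = 0.215) and Pcbp1 (0.27, edgeR adjusted p = 0.31). The family members outside the 8, Zc3h12b and Zfp36l3, were not called.

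Among the mRNAs described as targets of the members, Il3, Il2 and Csf2 were higher in dKO at both times, Ifng at 24 h and over both times, and Tnf over both times, while the cytokine gene Lif was not called between the genotypes (log2 0.29 at 24 h, 0.42 at 48 h). Of 13 tested ZFP36 family targets, 4 were higher and 0 lower in dKO at the earlier time, 3 and 0 at the later, and 8 and 0 over both, where 0.361%, 3.19% and 2.28% of all tested genes were higher. The list medians were 0.68, 0.50 and 0.67. These targets were listed with earlier results on the cytokines known, so their direction is not independent evidence. The 4 with the smallest p were the cytokine genes Il3, Il2, Csf2 and Ifng. Il2 held 6.74 and 6.32 CPM in the 24 h WT libraries against 53.9 and 46.5 in dKO, then 4.27 and 1.74 against 12.7 and 11.4, so that dKO exceeded WT at both times. Csf2 had 3 counts in the 2 WT libraries at 24 h together and 131 in the 2 dKO libraries. Ifng stood at 477 and 434 CPM in WT and 1210.3 and 1132 in dKO at 24 h. All 4 transcripts are in length class 1 (629 to 1208 bases), where the median of all genes was 0.08 at 24 h and 0.36 at 48 h.

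Those counts moved with the libraries read. With 1 library left out, 1 to 8 ZFP36 family targets were higher at the earlier time, 1 to 11 at the later and 3 to 11 over both, the fewest over both times without any 1 dKO library, and up to 1 lower. In time, 4 targets fell and 1 rose in WT, led by Ccl3 (−0.997), Ccl4 (−0.93) and Il2 (−1.34). In dKO 5 fell and 1 rose, led by Il3 (−2.11), Ccl3 (−1.58) and Il2 (−2.06). Of all tested genes, 3.5% fell and 7.87% rose in WT, and 1.88% fell and 1.76% rose in dKO. The counts of targets in time moved with 1 library left out as well. Zfp36l1 itself fell over the same interval in both genotypes.

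Of 11 tested mRNAs described as Regnase or Roquin targets, 2 were higher in dKO at 24 h (Il2 and Tnfrsf4, 1.27), 3 higher and 1 lower at 48 h (Il2, Tnfrsf4, 0.75, Batf, 0.71, and Nfkbiz, −0.64), and 4 higher and 0 lower over both times (Il2, Tnfrsf4, 1.01, Tnf, 0.57, and Batf, 0.48). The shares of all tested genes were 0.361% higher at 24 h, 3.19% higher and 8.04% lower at 48 h, and 2.28% higher over both. The list median was 0.23 at 24 h and 0.16 at 48 h. This list too was chosen with earlier results known, so its direction is not independent evidence. Il2, Tnfrsf4 and Batf are in length class 1 (955 to 1144 bases), where the median of all genes was 0.08 at 24 h and 0.36 at 48 h. Nfkbiz is in class 3 (4115 bases), where it was −0.09 at 48 h. The part of length was not tested. Leaving out 1 library gave 0 to 4 higher at 24 h, and 0 to 5 higher and 0 to 4 lower at 48 h. Over both times it gave 2 to 5 higher and 0 to 2 lower, with 2 higher without any 1 dKO library or 1 WT library of 24 h. From 24 to 48 h the surface receptor genes Icos (1.13 in WT, 1.01 in dKO) and Ctla4 (1.92 and 2.48) rose, as did Tnfrsf4 in WT (0.78). Icos and Ctla4 are both described Roquin or Regnase targets. Rc3h1 in the same libraries was at −0.18 in WT and −0.88 in dKO, neither called. Il2, on both lists, fell in both genotypes.

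The targets differed in the elements found in the 1 coding transcript searched per gene, and other annotated transcripts were not searched. Of those searched, Il2 held 1 nonamer in its 3′UTR, Csf2 held 4 and Tnf 5 that overlap each other, and Ifng held 0 nonamers and 4 copies of the shorter heptamer UAUUUAU. Il3 held neither in its annotated 3′UTR of 101 bases, although it was among the targets with the largest differences. Icos, with an annotated 3′UTR of 106 bases, and Tnfrsf4, with 180, held neither the nonamer nor the decay element.

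Annotation limits how far single members can be read. For 5 of the 8 members GENCODE M21 has another gene overlapping on the opposite strand: Gm26669 for Zfp36l1 (chr12:80107754-80113013), Gm44710 for Zfp36 (chr7:28376784-28380253), AC132455.1 for Zfp36l2 (chr17:84183931-84187947), a microRNA gene for Zc3h12c (chr9:52111344-52168572) and a snoRNA gene for Zc3h12d (chr10:7832470-7870396). None of these 5 symbols has a row in the count table, and whether the counting used strand is not given in the sources used here, so reads from either strand cannot be told apart.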

How the data were processed

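Read counts per gene symbol, as deposited by the authors in 1 table of the 8 libraries, were used without change. The submitters' processing notes name cutadapt 1.18, Bowtie2 2.2.5 and mm10. No source used here names the counting tool, its annotation or its use of strand. The last row of the table has no symbol and holds the column totals, and it was left out. Columns were matched to samples by the labels in their names.

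Counts were fitted with edgeR 4.0.16 in R 4.3.3 (quasi-likelihood F test, two-sided, TMM scaling, filterByExpr with a minimum count of 10, a mean per group, all 8 libraries in 1 fit so that the groups of 2 share 1 estimate of the spread). P-values were adjusted by Benjamini-Hochberg over all 12742 tested genes, and a gene was called at an adjusted p below 0.05. Levels are CPM after TMM scaling, except those of Xist and the Y-linked genes, which use the library totals alone. Totals of 5000952 to 21686236 counts per library put the limit that a count of 0 allows (3 counts) at 0.138 to 0.600 CPM. The fit was tested on simulated counts of 12742 genes. At the comparison of genotypes at 48 h it recovered 51% of genes changed by 1 log2 unit and 91% of those changed by 2, and 11.2% of its calls were false. At 24 h it recovered 42% and 82%, and in the interaction 14% and 76%, so most interactions of 1 log2 unit would be missed. Shares within a family have Wilson 95% intervals. 3′UTR windows came from GENCODE M21 on GRCm38, with 1 coding transcript per gene, and promoters from RefSeq on GRCm38.p6.

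The members and gene lists were chosen with earlier results of these data known. All 8 members and the targeted genes were named. Of each list, up to 4 called genes per genotype comparison and up to 3 per time comparison, those with the smallest p, were named, or up to 2 where 0 were called, and for each member the 3 genes most correlated with it. Alternatives were DESeq2 1.42.0, its size factors, library size alone, no filter, a mean of at least 50 counts, a replicate block, only 1 time point, and each library left out. Calls on the lists under these alternatives were added after seeing the data. Some of the gene lists, on partners and upstream regulators of the members, are not reported here.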

Additional observations from a re-analysis of the deposited data

How the results depend on the processing

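The number of the 8 members called was 0 at 24 h in every alternative run. With library size alone it was 0 at 48 h and 0 over both times (from 1 and 1), and 4 in each time course (from 1 and 1). With no filter it was 3 at 48 h, 2 over both times, 2 for time in WT and 4 for time in dKO. DESeq2 called 3 for time in dKO, and the 48 h libraries alone gave 0 at 48 h. Leaving out 1 library gave 0 to 4 members at 48 h, 0 to 6 over both times, 0 to 2 in the interaction, 0 to 5 for time in WT and 0 to 4 for time in dKO, with the most at 48 h, over both times and in the interaction without the first WT library at 48 h. The lone library of a group is then assumed to vary like the other groups. The cause of these shifts was not tested.

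The log2 difference changed sign with library size alone for Zfp36l2 at 48 h (0.107) and for Zc3h12d (0.157) and Zfp36 (0.0996) in the interaction. Zfp36l2 with time in dKO turned to 0.0051 with DESeq2's size factors, 0.0052 with DESeq2 and 0.0097 with no filter. Leaving out 1 library turned the sign of 11 uncalled values, whose ranges were −2.25 to 0.68 (Zc3h12c) and −0.019 to 0.195 (Rc3h2) at 24 h, −0.109 to 0.273 (Zc3h12a) and −0.255 to 0.144 (Zfp36l2) at 48 h, −0.493 to 0.968 (Zc3h12c) over both times, −0.237 to 0.269 (Zc3h12d) and −0.243 to 0.0868 (Zfp36) in the interaction, −0.717 to 0.195 (Rc3h1) and −0.722 to 0.246 (Rc3h2) for time in WT, and −0.344 to 2.49 (Zc3h12c) and −0.112 to 0.0744 (Zfp36l2) for time in dKO. Zfp36l1 kept its sign in every fit.

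Same-numbered libraries of different groups deviated together little (correlations of −0.0760 to 0.172), and the labels do not say that a number marks a shared mouse or day, so the numbers pair nothing. With the replicate block the call of Zfp36l1 over both times was lost, leaving 0 members, and the other counts of members stayed the same. Zc3h12c, at 1 to 13 counts a library, is limited by depth.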

Other observations

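The nonamer UUAUUUAUU was also read across all tested mRNAs, a list chosen after the members' values were seen. The 809 tested genes that hold it in the 3′UTR had a median log2 difference of dKO from WT of 0.01 at 24 h and −0.15 at 48 h, beside 0.01 and −0.03 over all tested genes. The value at 48 h was −0.03 without the second WT library at 48 h, and 0.03 with scaling by library size alone, which put all tested genes at 0.15. Genes with the nonamer are longer than the rest, and 391 of the 809 lie in class 4, the longest of the 4 classes by transcript length. At 48 h the medians with and without the nonamer were 0.40 and 0.36 in class 1, the shortest, 0.20 and 0.13 in class 2, −0.04 and −0.09 in class 3, and −0.39 and −0.39 in class 4. At 24 h they were 0.17 and 0.08, 0.11 and 0.02, 0.02 and −0.02, and −0.03 and −0.04 in the same order. These differences were not tested.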
